A study of Mus musculus with 6 samples.

Results

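Synaptic vesicle and SNARE genes were taken as the protein-coding mouse genes whose GENCODE M21 symbols name a synaptotagmin, a syntaxin, a VAMP, a SNAP, a synapsin, a vesicle glycoprotein of the SV2 family, a syntaxin-binding protein, a complexin, a Rab3 GTPase, synaptophysin or a synaptogyrin. The symbol rule found 70 genes, of which 69 had a transcript in the files, out of 37086 genes in all. Vamp9 was not analysed here. Snap91 entered by its symbol, although it encodes AP180, an adaptor of clathrin coats, and not a SNARE. The embryos were wild-type C57BL/6J mice at embryonic day 14.5, and dorsal root ganglia from 18 of them were pooled into 1 RNA stock of 100 ng per µl. High-volume cDNA reactions took the RNA in 9 µl, with the HV version of the SMARTer Ultra Low Input kit, and low-volume reactions took it in 1 µl, with the SMARTer Ultra Low RNA kit, so that volume and kit cannot be told apart. Total RNA of 3, 10 and 30 ng was used in each volume, giving 1 library per combination. All 6 libraries are technical repeats of 1 pool, so each SD and p-value below measures technical spread and not spread between embryos.

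A synaptic vesicle fuses when a SNARE protein on the vesicle, Vamp2 in most neurons, zips into a bundle with the SNAREs Stx1a and Snap25 on the plasma membrane. Complexins clamp and assist the bundle, and synaptotagmins 1 and 2 sense the calcium that triggers fusion. Related VAMPs, syntaxins and SNAPs drive fusion at the Golgi, endosomes and lysosomes of nearly all cells. Sensory neurons of the ganglion are born in mid-gestation and at this age extend axons to the skin and the spinal cord, where their synapses form.

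The chosen transcripts held 14160397, 23511760 and 25867688 tags in the high-volume libraries at 3, 10 and 30 ng, and 15920990, 26826281 and 31524210 tags in the low-volume libraries. Markers of the labelled tissue were present, beside those of other cell types. The sensory neuron genes Tubb3 and Isl1 averaged 2961 and 129 RPKM, a count scaled to transcript length and to the tags of the library, and the glial gene Sox10 averaged 13.1 RPKM. The spinal cord genes Olig2 and Pax6 averaged 0.00517 and 0.415 RPKM, and the sympathetic genes Dbh and Phox2a 0.118 and 0.645 RPKM. The erythroid gene Hbb-y averaged 3034 RPKM and the fibroblast gene Dcn 92.6 RPKM. The macrophage genes Tyrobp, C1qb and Csf1r averaged 68.4, 54.8 and 6.60 RPKM. The skeletal muscle genes Mylpf, Actc1 and Myod1 averaged 22.0, 8.23 and 0.0848 RPKM. The ganglia also hold glia, vessels and blood, and in this bulk RNA fewer cells of a type and less RNA per cell cannot be told apart.

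Snap25 has a pair of alternative exons, 5a and 5b, which are spliced in one at a time and change part of the palmitoylated linker of the protein. In mouse brain the 5a form is known as the more abundant form in embryos and the 5b form as that of adults. The exons are shown because the deposited exon rows count them separately. Both lie on the plus strand of chromosome 2 (GRCm38), exon 5a at 136769743-136769860 and exon 5b at 136770057-136770174, with 196 bases between them. Each has 118 bases, and 31 of these differ, which leaves 73.7% identity. Capitals mark the bases that differ, and the sequences were read from the GENCODE M21 transcripts Snap25-202 and Snap25-201.
Snap25 exon 5a: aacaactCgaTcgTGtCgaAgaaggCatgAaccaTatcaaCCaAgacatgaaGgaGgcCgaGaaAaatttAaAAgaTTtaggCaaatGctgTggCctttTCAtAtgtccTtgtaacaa
Snap25 exon 5b: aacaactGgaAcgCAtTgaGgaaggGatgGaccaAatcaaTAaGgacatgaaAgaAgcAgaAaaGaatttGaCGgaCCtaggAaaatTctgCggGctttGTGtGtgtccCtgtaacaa

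Exon 5b carried most of the tags in every library. In the high-volume libraries 109 of 112 tags at 3 ng, 109 of 120 at 10 ng and 121 of 137 at 30 ng lay on exon 5b. In the low-volume libraries 104 of 107 tags at 3 ng, 163 of 185 at 10 ng and 156 of 171 at 30 ng lay on exon 5b. The shares were thus 97.3%, 90.8% and 88.3% with the high volume, and 97.2%, 88.1% and 91.2% with the low volume. The lowest exact (Clopper-Pearson) 95% bound among the libraries was 81.7%, in the high-volume 30 ng library, and these intervals cover counting error only. Both 3 ng libraries lay above the other four, and the volumes overlapped. The share averaged 92.2% ± 4.64 with the high volume and 92.2% ± 4.62 with the low volume (SD, n = 3 each). A two-sided exact permutation test gave p = 1, where the smallest p of this design is 0.1. Exon 5b itself had 35.7 to 59.7 RPKM, against 35.9 to 53.0 RPKM on the constitutive exon 6 of the same libraries.

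**Figure D1:**
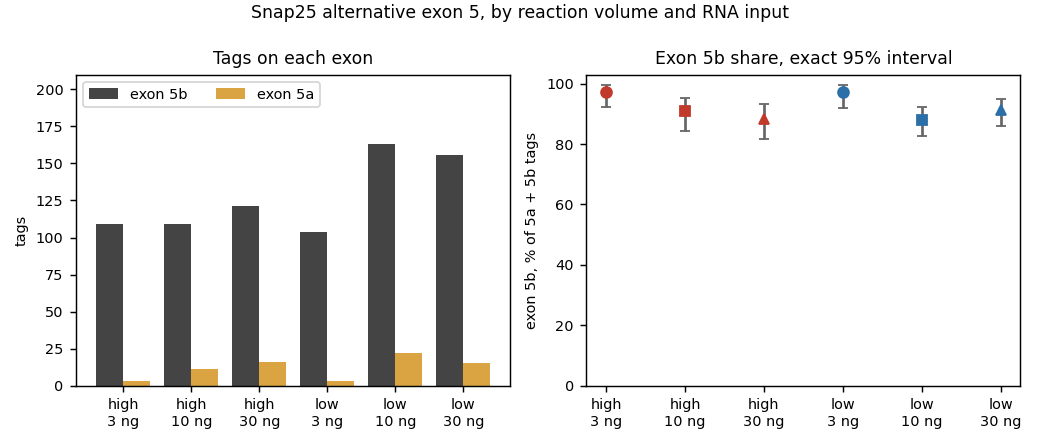
Tags on Snap25 exons 5b (dark) and 5a (ochre) in each library (left), and exon 5b as a percentage of the tags on both, with exact 95% intervals (right). Exon 5b holds 88.1% to 97.3% of the tags, with both 3 ng libraries highest.

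Syt7, which has 3 optional linker exons between its membrane anchor and its calcium-binding domains, gave 0, 2 and 1 tags on them. That gene could not show its splicing here, since 98.9% of the tags of its chosen transcript fell on the last exon. Stx2, a syntaxin of the plasma membrane with alternative carboxyl ends, carried 191 tags on the 125-base exon near its 3′ end, or 128% ± 44.8 of its common exons per base. The common exons were only 2, with 235 tags over the libraries, and the value ran from 66.2% to 171%. It therefore does not give how often that end was used.

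Of the 69 genes, 55 averaged 1 RPKM or more (79.7%, against 52.9% of 21490 protein-coding genes), and 32 averaged 10 RPKM or more (46.4%, against 20.6%). These are shares of a list chosen by name, and no test was made of them. Another 14 averaged under 1 RPKM, 5 of them under 0.1 RPKM, and Cplx4 and Syt8 had 0 tags in every library. Among the genes at 10 RPKM or more, the coefficient of variation over the 6 libraries had a median of 17.4%, against 16.3% over all 4620 genes at that level. In the order of means, only Rab3a over Vamp8 among the 68 neighbouring pairs had ranges that did not overlap. By ranges, the order of the other neighbours was thus not resolved. Within libraries a few of these pairs, Snap47 over Rab3a among them, kept the same order in 6 of 6. The plot of levels by family shows 53 of these 55.

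**Figure D2:**
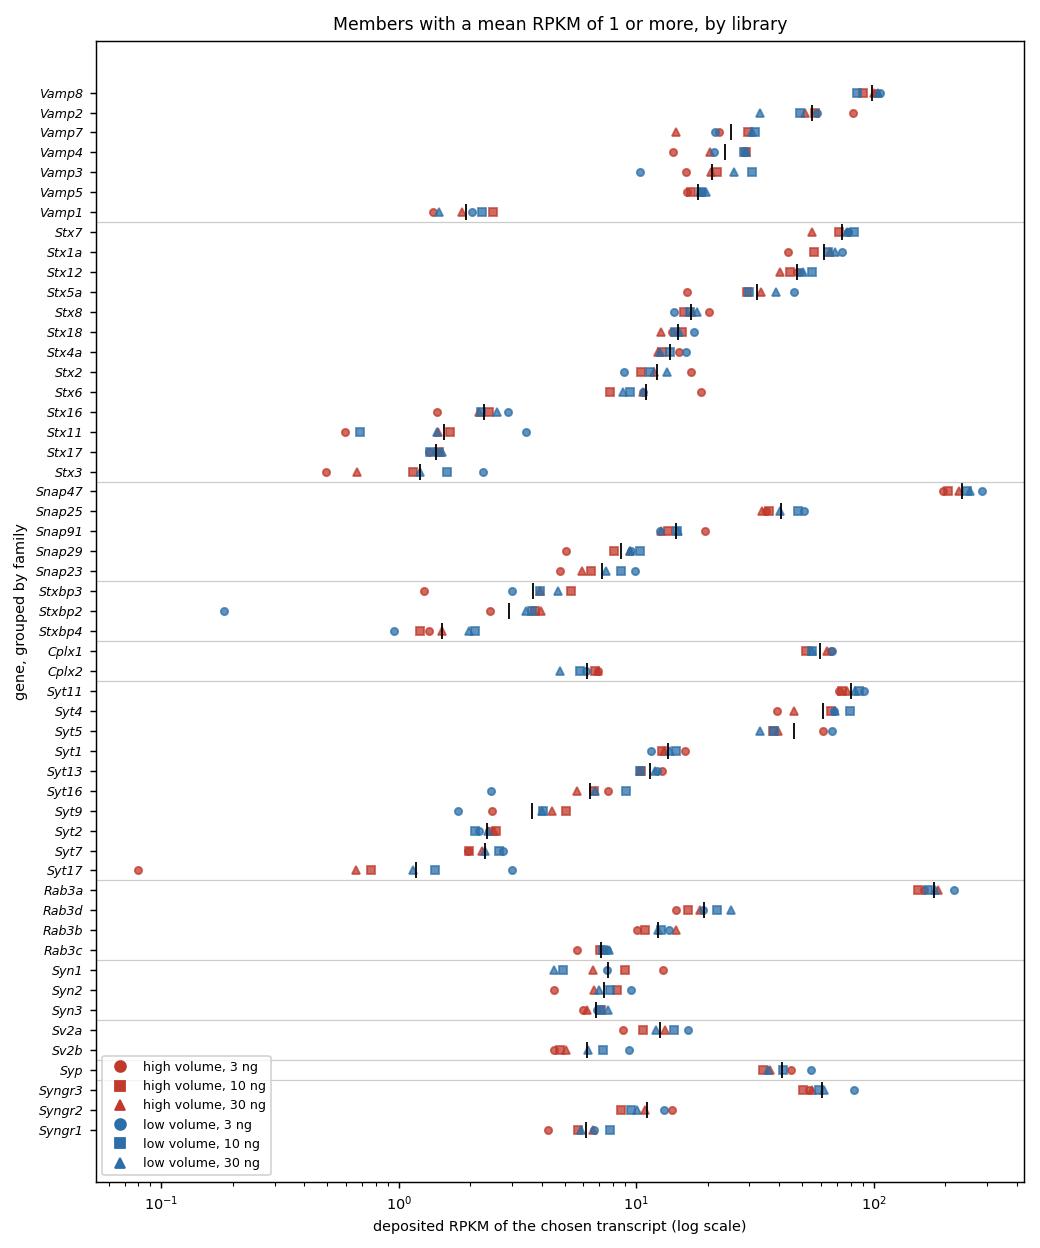
Deposited RPKM (log scale) of 53 of the 55 genes that averaged 1 RPKM or more, grouped by family. Red symbols are high-volume and blue symbols low-volume libraries, with the input given by shape (circle 3 ng, square 10 ng, triangle 30 ng), and black bars are means of 6 libraries. Snap47 and Rab3a are highest, at 236 and 179 RPKM, and Stxbp2 and Syt17 have 1 library far below the others.

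Among the vesicle SNAREs, Vamp8, which serves fusion at endosomes and in secretory cells, was highest. Vamp8 had 102, 90.3 and 101 RPKM in the high-volume libraries at 3, 10 and 30 ng, and 106, 85.5 and 105 RPKM in the low-volume libraries. Its values overlapped between volumes and spanned a narrow range. Vamp2 (synaptobrevin 2), the main vesicle SNARE of neurons, had 82.0, 56.7 and 51.4 RPKM in the high-volume libraries and 57.6, 49.0 and 33.3 RPKM in the low-volume libraries. At each input the high-volume library held more Vamp2, and in each volume the 3 ng library was highest. Vamp7, which acts at late endosomes and in neurite growth, averaged 25.1 ± 6.73 RPKM, and is placed on an unlocalised scaffold of the build. Vamp4 of the trans-Golgi network averaged 23.7 ± 6.02, Vamp3 (cellubrevin) of recycling endosomes 20.96 ± 7.09, and Vamp5, known from muscle, 18.2 ± 1.27 RPKM. Vamp1, the paralog of Vamp2 known from motor and other fast-firing neurons, averaged 1.92 ± 0.43 RPKM (SD, n = 6 for each).

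On the chosen transcripts, syntaxins were led by the late endosomal member Stx7, which was above Stx1a in 5 of 6 libraries. Stx7 had 78.0, 71.3 and 54.9 RPKM in the high-volume libraries at 3, 10 and 30 ng, and 77.9, 82.5 and 77.0 RPKM in the low-volume libraries. Stx1a, the plasma membrane syntaxin of neurons, had 43.6, 55.9 and 65.8 RPKM in the high-volume libraries and 73.8, 64.0 and 69.1 RPKM in the low-volume libraries. The high-volume values were higher at higher input and overlapped the low-volume ones only at 30 ng. Of the syntaxins of inner membranes, Stx12 (recycling endosomes) averaged 47.8 ± 4.97 RPKM, Stx5a (Golgi) 32.4 ± 10.1, Stx8 (late endosomes) 17.1 ± 1.98, Stx18 (endoplasmic reticulum) 15.0 ± 1.59 and Stx6 (trans-Golgi network) 11.0 ± 3.93 RPKM. Stx16 of the trans-Golgi network averaged 2.29 ± 0.48 RPKM and Stx17 of the autophagosome 1.44 ± 0.074 RPKM. The plasma membrane syntaxins Stx4a and Stx2 averaged 13.8 ± 1.54 and 12.2 ± 2.82 RPKM, while Stx3, the syntaxin of ribbon synapses and apical membranes, averaged 1.23 ± 0.64 RPKM. Stx11, known from immune cells, averaged 1.55 ± 1.03 RPKM.

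The SNAP family was dominated by Snap47, a broadly expressed relative of Snap25 without the palmitoylated cysteines, and not by the synaptic member. Snap47, on chromosome 11 (GRCm38, 59407134-59449999), was the most abundant gene of all 69. It had 197, 206 and 228 RPKM in the high-volume libraries at 3, 10 and 30 ng, and 287, 247 and 254 RPKM in the low-volume libraries, without overlap between the volumes. Its level did not rest on 1 exon, as exons 2 to 5 averaged 209, 271, 332 and 237 RPKM. Snap25 had 35.1, 36.4 and 33.7 RPKM in the high-volume libraries and 51.2, 48.2 and 40.2 RPKM in the low-volume libraries, again without overlap. The broadly expressed Snap29 and Snap23 averaged 8.66 ± 1.91 and 7.20 ± 1.87 RPKM, and the clathrin adaptor gene Snap91 14.7 ± 2.56 RPKM. Snap47 made up 76.8% ± 1.48 of the summed RPKM of the 5 SNAP symbols (SD over 6 libraries, range 75.04% to 78.66%).

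Among the syntaxin-binding proteins, the broadly expressed Stxbp3 averaged 3.70 ± 1.42 RPKM and Stxbp2, known from blood and epithelial cells, 2.90 ± 1.44 RPKM. Stxbp4, a syntaxin 4 partner, averaged 1.52 ± 0.44 RPKM. The complexins had 1 leading member. Cplx1 had 66.3, 51.9 and 63.4 RPKM with the high volume and 66.9, 55.1 and 54.9 RPKM with the low volume, and made up 90.5% ± 1.26 of the complexin total. Cplx2 had 6.93, 6.71 and 6.88 RPKM with the high volume and 6.14, 5.78 and 4.79 RPKM with the low volume. Of the retinal complexins, Cplx3 averaged 0.0245 RPKM.

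Among 17 synaptotagmins, 10 averaged 1 RPKM or more, and the most abundant were not the fast calcium sensors. Syt11, which does not bind calcium through its C2 domains, had 71.5, 73.3 and 77.0 RPKM in the high-volume libraries at 3, 10 and 30 ng and 91.3, 86.9 and 83.8 RPKM in the low-volume libraries, without overlap. Its close paralog Syt4, found on secretory granules and the Golgi, had 39.1, 66.2 and 46.0 RPKM with the high volume and 67.8, 79.8 and 69.0 RPKM with the low volume, also without overlap. Syt5, a calcium-binding form, had 61.0, 37.6 and 39.6 RPKM with the high volume and 67.1, 38.2 and 33.2 RPKM with the low volume. Both 3 ng libraries were highest for Syt5, and the volumes overlapped. Syt1, the calcium sensor of fast release in most forebrain neurons, had 16.0, 12.8 and 13.1 RPKM with the high volume and 11.6, 14.7 and 13.8 RPKM with the low volume. Syt2, its counterpart in hindbrain, spinal cord and motor synapses, had 2.40, 2.57 and 2.52 RPKM with the high volume and 2.17, 2.102 and 2.37 RPKM with the low volume. Syt9, another fast sensor, averaged 3.63 ± 1.24 RPKM and Syt7, the slow high-affinity sensor, 2.31 ± 0.33 RPKM. Of forms that lack calcium binding, Syt13 and Syt16 averaged 11.4 ± 1.09 and 6.37 ± 2.24 RPKM, and Syt17 averaged 1.18 ± 1.00 RPKM.

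On the vesicle itself, Rab3a, the GTPase that ties vesicles to active zone effectors, had 163, 154 and 188 RPKM in the high-volume libraries at 3, 10 and 30 ng and 219, 170 and 181 RPKM in the low-volume libraries. It made up 82.1% ± 1.88 of the Rab3 total. Rab3d and Rab3b averaged 19.3 ± 3.76 and 12.4 ± 1.74 RPKM, and Rab3c 7.10 ± 0.74 RPKM. Syngr3, a vesicle tetraspan protein of neurons, had 53.6, 50.2 and 55.1 RPKM with the high volume and 83.0, 59.0 and 61.8 RPKM with the low volume. Syngr2 of non-neuronal cells averaged 11.1 ± 2.14 RPKM and Syngr1 6.13 ± 1.18 RPKM. Syp (synaptophysin), the standard vesicle marker, had 44.7, 34.1 and 36.6 RPKM with the high volume and 54.7, 41.5 and 36.1 RPKM with the low volume. Sv2a, the widespread form of the vesicle glycoprotein, averaged 12.6 ± 2.74 RPKM. Sv2b had 4.49, 4.77 and 5.09 RPKM with the high volume and 9.30, 7.24 and 6.28 RPKM with the low volume, without overlap. The synapsins, which tether vesicles into clusters, averaged 7.59 ± 3.11 (Syn1), 7.29 ± 1.71 (Syn2) and 6.81 ± 0.60 RPKM (Syn3) over the chosen transcripts. Over exons free of overlap with other genes they averaged 2.30, 7.35 and 1.36 RPKM. For Syn1 this leaves out the whole last exon, which overlaps another gene by only 5 of its 1095 bases.

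Paralogs were compared within each library on the log2(RPKM + 1) scale, with 12 pairs set by name. In 11 pairs the same gene was higher in 6 of 6 libraries, and the two-sided exact sign-flip permutation test gave p = 0.03125, the smallest it can give, with p = 0.0341 after Benjamini-Hochberg adjustment over the 12. Vamp2 exceeded Vamp1 by 4.23 ± 0.47, Rab3a exceeded Rab3c by 4.47 ± 0.16 and Cplx1 exceeded Cplx2 by 3.08 ± 0.18 (mean log2 difference ± SD, n = 6 libraries). Snap25 exceeded Snap23 by 2.36 ± 0.14, Syt1 exceeded Syt2 by 2.12 ± 0.17, and Sv2a exceeded Sv2b by 0.93 ± 0.16 and Sv2c by 2.88 ± 0.38. The difference was -3.11 ± 0.28 for Syngr1 minus Syngr3, so Syngr3 was the higher gene. Syt11 exceeded Syt4 by 0.43 ± 0.31, the smallest difference that passed. Syn1 minus Syn2 was 0.01 ± 0.70, with Syn1 higher in 2 of 6 libraries and an exact p of 1. With any library left out, 0 of 12 pairs passed, because the smallest exact p of 5 libraries is 0.0625.

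A per-length level depends on the exons counted, and the tags of several genes were uneven over their transcripts. Exons 2 to 7 of Stx8 averaged 69.2 to 118 RPKM, while the last exon, of 3443 bases, averaged 3.28 RPKM. The transcript Stx8-204 without that exon averaged 97.5 RPKM in place of 17.1, which is above Stx7 at 73.6 RPKM. Rab3c likewise averaged 41.8 RPKM on its median exon, against 7.10 RPKM over the transcript, whose last exon has 7816 of 8500 bases. Rab3b averaged 35.5 RPKM on its median exon, against 12.4 RPKM. By contrast, 98.9% of the Syt7 tags and 95.8% of the Stx3 tags fell on 1 exon, which has 70.9% and 48.7% of the bases of these transcripts. On the median exon Syt7 averaged 0.0552 RPKM and Stx3 0.165 RPKM. With the median exon as the level, 53 of the 69 genes reached 1 RPKM, against 55 by transcript, and the same 11 pairs passed with the same gene higher, although Rab3a then exceeded Rab3c by 2.28 ± 0.43 rather than 4.47. This measure was chosen after seeing the data.

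Overlapping genes touched 15 members, 5 of them over 10% or more of their length. The counts were taken not to use strand, so tags of overlapping genes cannot be told apart. Syn3 shares its last exon, and 36.3% of its length, with Timp3, an inhibitor of matrix proteases that lies in the Syn3 gene. That exon held 96.2% of the Syn3 tags, and over exons free of overlap Syn3 averaged 1.36 RPKM in place of 6.81. Its chosen transcript is annotated as a retained intron, and its most counted coding transcript averaged 1.11 RPKM. Syp averaged 30.2 RPKM on exons free of overlap in place of 41.3, and Stx18 9.45 RPKM in place of 15.0. Syn1 overlaps its neighbour Araf by 0.156% of its length, at the end of its last exon. That exon has 34.1% of the bases and held 82.7% of the tags, and the other exons averaged 2.30 RPKM. The chosen transcripts of Stx1a, Stx5a, Syt16 and Stx3 are annotated as targets of nonsense-mediated decay. The most counted coding transcripts of Stx1a and Stx5a averaged 62.1 and 32.3 RPKM, against 62.0 and 32.4 RPKM for the chosen ones. That of Stx3 averaged 1.51 RPKM, against 1.23 RPKM. Syt16 had no coding transcript with values, so its level is that of the decay target alone.

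**Figure D3:**
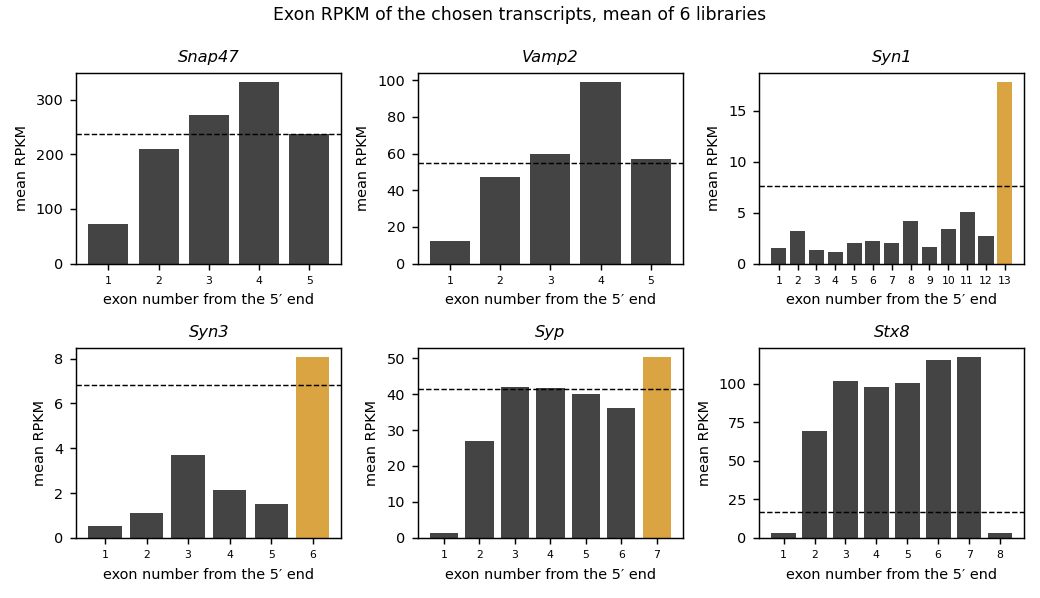
Mean RPKM over 6 libraries for each exon of 6 chosen transcripts, numbered from the 5′ end. Ochre bars are exons that overlap an exon of another gene, and dashed lines are the transcript's mean RPKM. Snap47 and Vamp2 are covered over most exons, and the last exon of Stx8 is low. Syn1 and Syn3 are highest on the last exon, where the overlap is 5 of 1095 bases in Syn1 and 1733 of 3867 in Syn3.

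The libraries were made to compare reaction volumes. No synaptic vesicle or SNARE gene passed the threshold of an adjusted p under 0.05 over all 6 libraries (edgeR quasi-likelihood test, Benjamini-Hochberg over 16120 genes). Of the 63 members that passed the low-count filter, 0 were called, against 1 gene or 0.0062% of all tested genes, and 4 of 63 (6.35%) had an unadjusted p under 0.05, against 6.67% of all. The log2 difference, high volume minus low volume, was above 0 in 31 members and below 0 in 32, with a median of -0.003, against 0.018 over all tested genes. In 51 of the 63 members it lay within 0.5 of 0. DESeq2 called 2 of the 67 members with any tags, Vamp2 and Syn1, against 0.67% of all 24792 genes with tags. Some of these genes, among them Stx19, Stx3 and Stxbp2, got no adjusted p and were counted as not called.

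Vamp2 and Syn1 were also the only members called, out of 64, when the 10 and 30 ng libraries were fitted alone, where 1.68% of all genes were called and 1.23% were called as higher. Vamp2 lies on chromosome 11 (GRCm38, 69088490-69092384) and Syn1 on the X chromosome (20860515-20920918). Vamp2 was higher with the high volume by 0.54 ± 0.11 on the log2 scale (SE, edgeR adjusted p = 0.0350), and by 0.60 ± 0.12 over all 6 libraries (adjusted p = 0.553; DESeq2 0.58 ± 0.13, adjusted p = 0.00200). Syn1, with 13.0, 9.00 and 6.58 RPKM in the high-volume libraries at 3, 10 and 30 ng and 7.57, 4.93 and 4.51 RPKM in the low-volume libraries, was higher by 0.83 ± 0.16 (adjusted p = 0.0307). Over all 6 libraries Syn1 was higher by 0.87 ± 0.19 (adjusted p = 0.553; DESeq2 0.86 ± 0.20, adjusted p = 0.00327). A correction for GC content in the 10 and 30 ng fit left neither call, against 0.966% of all genes called, with 0.51 for Vamp2 (adjusted p = 0.0501) and 0.66 for Syn1 (adjusted p = 0.106).

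The difference was seen on both parts of each transcript. On the last exon of Syn1, which touches Araf, the high-volume libraries had 26.1, 22.0 and 16.5 RPKM at 3, 10 and 30 ng and the low-volume libraries 16.3, 13.5 and 12.5 RPKM. On its other 12 exons the high-volume libraries had 6.17, 2.29 and 1.46 RPKM and the low-volume libraries 3.05, 0.488 and 0.348 RPKM. At each input the high-volume library was the higher one on either part. The last exon took 68.6%, 83.3% and 85.4% of the Syn1 tags with the high volume and 73.5%, 93.5% and 94.9% with the low volume. On the last exon of Vamp2 the high-volume libraries had 81.9, 58.8 and 50.6 RPKM and the low-volume libraries 61.6, 52.7 and 37.5 RPKM. On its other 4 exons the values were 82.0, 48.7 and 54.4 RPKM with the high volume and 43.1, 35.4 and 18.0 RPKM with the low volume, without overlap. The part of transcript coverage in these differences was not tested.

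Apart from Vamp2, the 10 most abundant members showed small differences between volumes by edgeR, and none passed the test. Snap47 differed by -0.18 ± 0.10 (log2, SE), Rab3a by -0.03 ± 0.13, Vamp8 by 0.13 ± 0.14, Syt11 by -0.09 ± 0.08, Stx7 by -0.08 ± 0.13 and Stx1a by -0.19 ± 0.14. Syt4 differed by -0.38 ± 0.19, Syngr3 by -0.20 ± 0.14 and Cplx1 by 0.19 ± 0.13. Adjusted edgeR p-values of these 9 genes ran from 0.788 to 0.970. The largest estimates in either direction, apart from Syn1, belonged to genes near or under 1 RPKM, plus Stxbp2 and Sv2b. Stx19, Syt12, Stxbp2 and Syt3 gave 1.53 ± 0.96, 1.51 ± 0.84, 0.96 ± 0.74 and 0.77 ± 0.77. A single library moved each of these far, as with any 1 left out they ran from 0.67 to 2.31 for Stx19, 0.60 to 2.35 for Syt12, 0.16 to 1.91 for Stxbp2 and 0.22 to 1.27 for Syt3. Syt17, Syt10, Stx3, Stxbp6 and Sv2b gave -1.73 ± 0.97, -1.68 ± 1.54, -0.94 ± 0.53, -0.75 ± 0.62 and -0.50 ± 0.18. With any 1 library left out they ran from -2.61 to -0.82, -3.52 to -0.33, -1.35 to -0.51, -0.98 to -0.28 and -0.64 to -0.37 in the same order. None of these passed the test either, with adjusted edgeR p-values from 0.711 to 0.831.

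**Figure D4:**
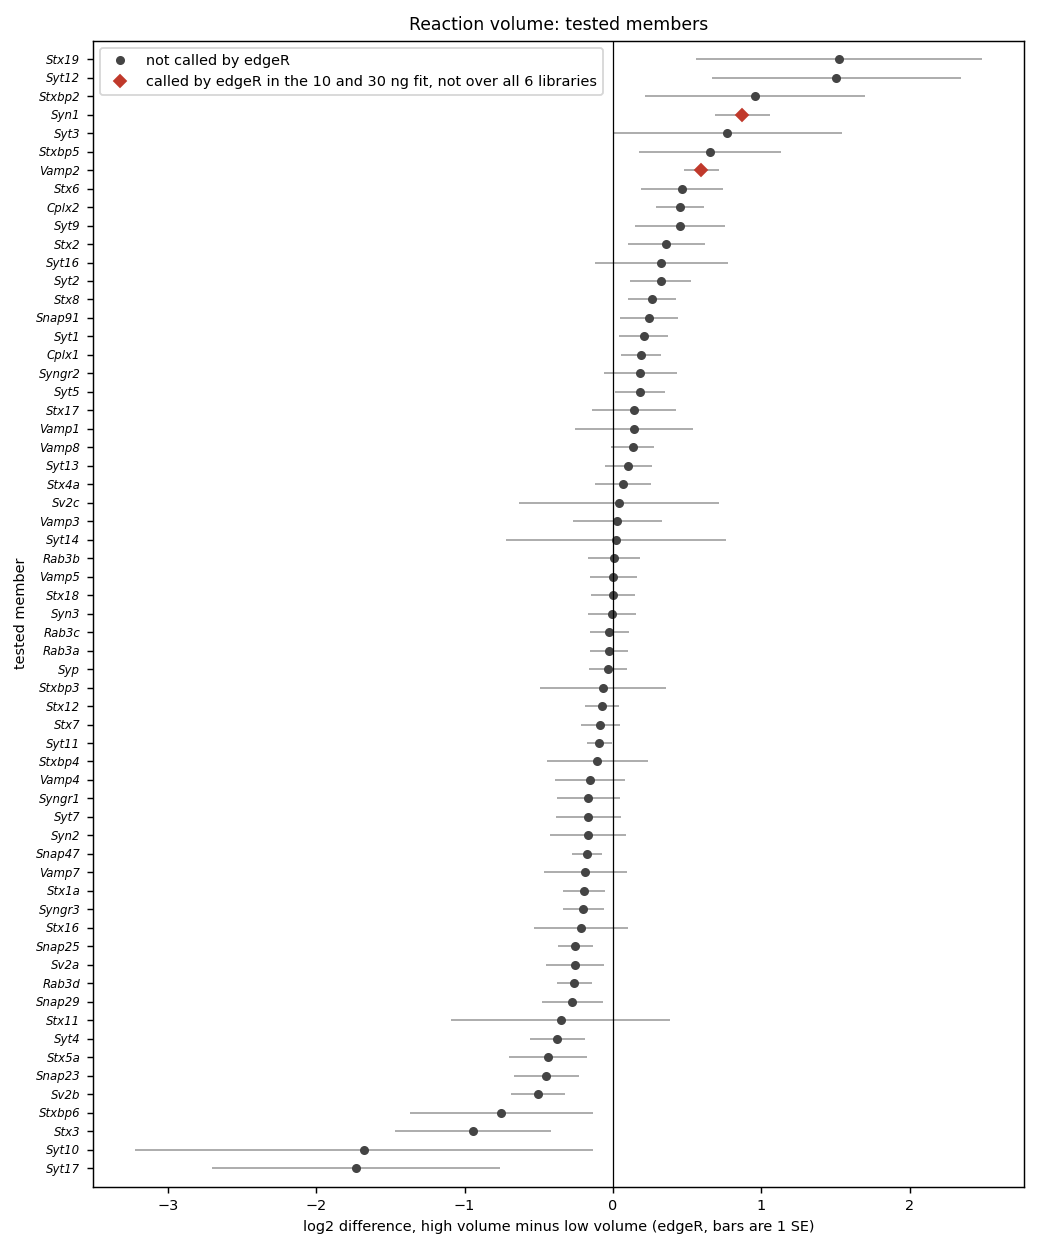
Log2 difference of 61 of the 63 tested genes, high volume minus low volume, with 1 SE from edgeR over 6 libraries. Red diamonds are Vamp2 and Syn1, which edgeR called in the fit of the 10 and 30 ng libraries and not over all 6, and the estimates with the widest bars belong to genes of low count.

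On the deposited RPKM scale the volumes did not overlap in 20 of the 63 genes (31.7%), against 19.0% of all tested genes. In 4 of these (6.35% of the members) the high-volume libraries were higher, against 4.03% of all genes, and in 16 (25.4%) they were lower, against 15.0% of all. The 16 included Snap47, Syt11, Syt4, Syngr3, Stx12 and Snap25. The RPKM is scaled to all tags and the edgeR differences to TMM factors. With total-count scaling in the edgeR fit the median difference was -0.12 over the members and -0.10 over all tested genes.

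For RNA input, 0 of the 63 members and 0.0% of all 16120 genes were called by edgeR, and 6 members (9.52%) had an unadjusted p under 0.05, against 7.77% of all genes. The slope, as log2 change per doubling of input, was above 0 in 35 members and below 0 in 28, with a median of 0.006, against 0.021 over all tested genes. The lowest slopes belonged to Syn1 at -0.26 ± 0.07, Syt5 at -0.25 ± 0.06 and Vamp2 at -0.22 ± 0.04 (SE). DESeq2 called 1 of the 67 members with any tags, Vamp2 (-0.23 ± 0.05, adjusted p = 0.00558), against 0.238% of all genes with tags. Genes without an adjusted p were again counted as not called. The highest slopes belonged to Stxbp2 at 0.55 ± 0.31, Sv2c at 0.45 ± 0.27 and Syt14 at 0.43 ± 0.30, and none passed the test. With any 1 library left out these ran from 0.15 to 0.91, 0.13 to 0.68 and 0.26 to 0.53 in the same order. Stxbp2 had 2.42, 3.76 and 3.98 RPKM in the high-volume libraries and 0.183, 3.66 and 3.42 RPKM in the low-volume libraries, so that the low-volume 3 ng library stood far below the rest. Sv2c had 0.152, 1.34 and 1.24 RPKM with the high volume and 0.667, 0.850 and 0.977 RPKM with the low volume. The interaction of volume and input was called in 0 of 63 members and 0.0% of all genes, and 6 members had an unadjusted p under 0.05 (9.52%, against 8.36% of all).

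**Figure D5:**
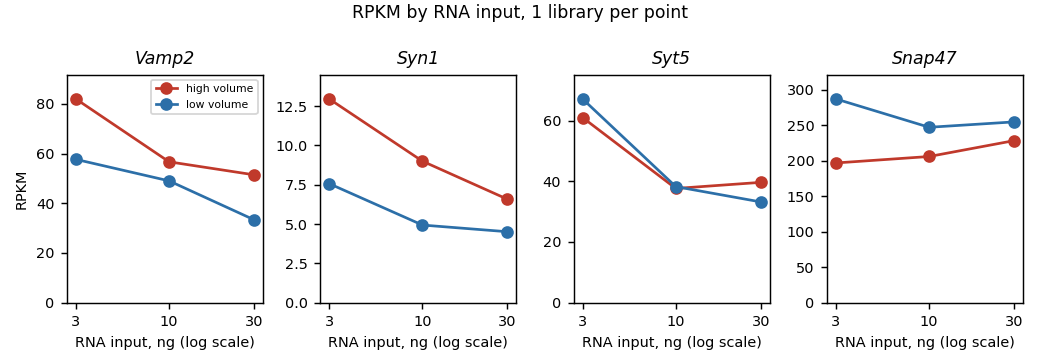
RPKM of Vamp2, Syn1, Syt5 and Snap47 by RNA input (log scale), with 1 library per point, high volume in red and low volume in blue. Vamp2 and Syn1 are higher with the high volume at each input and highest at 3 ng, Syt5 is highest at 3 ng in both volumes, and Snap47 is lower with the high volume at each input.

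Tags on introns were few. Over the 55 members with at least 1000 intron bases free of any exon, intron density was a median 0.443% of exon density, against 0.760% over 12282 tested genes. Snap47 had 199 intron tags on 29569 bases, a ratio of 0.0190%. The ratio was highest in the low genes Stx19 at 9.92%, Sv2c at 8.53% and Syt14 at 6.47%, and Syn1 reached 2.59%.

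Other genes of the release machinery were measured with lists set by name. All 4 genes of NSF and its adaptors, which pull spent SNARE bundles apart, reached 1 RPKM, led by Napa (alpha-SNAP) at 151 ± 18.8 RPKM and Nsf at 17.2 ± 2.89 RPKM. The vesicle proton pump, which powers transmitter loading and acidifies lysosomes everywhere, had all 16 genes over 1 RPKM, led by Atp6v0b at 517 ± 75.1 RPKM and Atp6v1g1 at 331 ± 37.6 RPKM. Among 12 other SNAREs of the secretory path, all at 1 RPKM or more, Use1 averaged 177 ± 34.2 and Vti1b 56.8 ± 5.03 RPKM. Of 8 other vesicle tetraspan genes 7 reached 1 RPKM, led by the carrier membrane proteins Scamp3 and Scamp4 at 54.7 ± 9.04 and 44.2 ± 8.39 RPKM. Active zone scaffold genes were lower, with 12 of 16 at 1 RPKM or more, and Unc13d, known from immune cells, and Rims3 highest at 19.5 ± 2.77 and 16.0 ± 1.69 RPKM. Of 22 other genes with C2 domains or Rab3 effector roles 13 reached 1 RPKM, and Esyt1, which joins the endoplasmic reticulum to the plasma membrane, led with 20.04 ± 2.81 RPKM, followed by Rab3il1 at 8.81 ± 0.92 RPKM. Of 10 vesicle transporters with values 3 reached 1 RPKM, and the transporter-like Svop and the vesicular glutamate transporter Slc17a6 averaged 17.1 ± 5.06 and 15.5 ± 2.27 RPKM.

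No gene of these lists, nor of vesicle endocytosis, was called for volume over 6 libraries by edgeR. Vesicle endocytosis, led by the clathrin adaptor gene Ap2m1 at 384 ± 47.9 RPKM and Ap2s1 at 141 ± 31.2 RPKM, had 23 of 24 genes at 1 RPKM or more and a median log2 difference of 0.21, against 0.02 over all genes. In the 10 and 30 ng libraries 2 of its 24 genes were called as higher with the high volume by edgeR, against 1.23% of all genes. Both encode subunits of the AP-2 adaptor, but the listed subunits Ap2b1 and Ap2m1 were not called, at 0.30 and -0.17 in that fit. Ap2s1 had 165, 152 and 157 RPKM in the high-volume libraries at 3, 10 and 30 ng and 167, 108 and 94.9 RPKM in the low-volume libraries, a difference of 0.74 (adjusted p = 0.00749). Ap2a1 had 21.9, 11.5 and 11.1 RPKM with the high volume and 17.3, 8.43 and 6.10 RPKM with the low volume, a difference of 0.79 (adjusted p = 0.0222). No marker of a cell type was called by edgeR over the 6 libraries. The summed level of the 6 sensory neuron markers ran from 2981 to 3713 RPKM with the high volume and from 3736 to 4367 RPKM with the low volume, and that of the 4 glial markers from 830 to 896 RPKM with the high volume and from 925 to 961 RPKM with the low volume. The 4 erythroid markers summed to 4318 to 4539 RPKM with the high volume and 3664 to 4072 RPKM with the low volume. In the 10 and 30 ng libraries edgeR called the sensory neuron genes Prph as higher with the high volume, by 0.33 (adjusted p = 0.0413), and Pou4f1 as lower, by -0.45 (adjusted p = 0.0303). It also called the globin genes Hbb-y and Hbb-bs as higher, by 0.30 and 0.34 (adjusted p = 0.0303 and 0.0335). The part of these sums in the volume values of the synaptic genes was not tested.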

How the data were processed

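Poly(A)-primed, full-length cDNA of 1 RNA pool was sequenced as 6 libraries. The tools named in the submitters' processing notes are Bowtie2 2.1.0, TopHat2 2.0.8 and CASAVA 1.8, and the build is GRCm38.p1; which program counted, and how it treated strand, spliced reads and reads with several matches, is not given in the sources used here. For each transcript, exon and intron the authors deposited a whole-number tag count and an RPKM, which is that count scaled to length and to the library's tags; reads shared by near-identical paralogs may be split in either. Tags have no molecular identifiers.

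Transcripts were named with GENCODE M21 (89664 of 93615 matched), and each of 37086 genes took its transcript with the largest summed count. The count test was edgeR 4.0.16 under R 4.3.3 (quasi-likelihood, TMM, filterByExpr, volume plus centred log2 input, 3 residual degrees of freedom), on all genes, with Benjamini-Hochberg adjustment and a threshold of 0.05; the 10 and 30 ng fit leaves 1 residual degree of freedom. DESeq2 1.42.0 was an alternative. The edgeR script was tested on simulated data. Levels and paralog pairs used RPKM, the pairs with a pseudocount of 1. Library numbers were checked for pairing by input. Genes were named by a rule: those at 1 RPKM or more for levels, and those called, the 10 most abundant and the 5 largest differences each way for volume. The genes, lists and alternatives were chosen with earlier results of these data known. P-values measure technical spread only. Values of some genes are not reported here; counts over the members include them.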

Additional observations from a re-analysis of the deposited data

Results flagged for a closer look

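Over the 6 libraries of each of the 55 genes at 1 RPKM or more, 5 genes had 1 library far from the others by Dixon's ratio, above 0.625. For 6 normal repeats of 1 condition, chance alone gives about 1 in 20 such groups. These libraries differ by design in volume, kit and input, so that rate need not hold here. The share over all genes was not measured, so the count cannot be read as a trait of these genes. All 5 were 3 ng libraries, which had the fewest tags (14160397 with the high volume and 15920990 with the low volume), and their cause was not tested. Stx6, a syntaxin of the trans-Golgi network, had 18.73 RPKM in the high-volume 3 ng library and 7.784 to 10.68 RPKM in the others. Snap91, the clathrin adaptor gene, had 19.53 RPKM in the high-volume 3 ng library and 12.56 to 14.96 RPKM in the others. Rab3c had 5.654 RPKM in the high-volume 3 ng library and 7.065 to 7.699 RPKM in the others. Syngr3 had 83.02 RPKM in the low-volume 3 ng library and 50.24 to 61.76 RPKM in the others. Stx11 had 3.453 RPKM in the low-volume 3 ng library and 0.593 to 1.646 RPKM in the others. No interaction of volume and input was called for any of the 63 tested genes by edgeR.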

How the results depend on the processing

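The number of members called by volume was 0 over all 6 libraries with edgeR, 2 with DESeq2 and 2 in the 10 and 30 ng libraries alone (Vamp2 and Syn1 in each), and that called by input was 0 with edgeR and 1 with DESeq2. With a replicate block the volume count was 0, and libraries of the same input did not all deviate together (correlations of 0.159 at 10 ng, 0.0546 at 3 ng and 0.0304 at 30 ng), so the numbers share only an input. With 1 library left out, the counts called by volume, input and interaction ran from 0 to 0, pairs past the threshold from 0 to 0, genes at 1 RPKM or more from 54 to 56, and the exon 5b share from 91.1% to 93.0%. The direction turned for 4 results, none of them called over the 6 libraries: Rab3a by volume between -0.1647 and 0.1003 with 1 library left out (above 0 without the high-volume 10 or 3 ng or the low-volume 3 ng library) and 0.0826 in the 10 and 30 ng fit; Stx7 between -0.2408 and 0.0547; Syt10 at 0.0387 in the 10 and 30 ng fit with GC correction; and Syn1 minus Syn2 at -0.25 with CPM, -1.08 on median exons, and between -0.2596 and 0.1201 with 1 library left out (-0.0122 without the high-volume 10 ng library and -0.2596 without the high-volume 3 ng library). The cause was not tested. The 10 and 30 ng fit has 1 residual degree of freedom, and 6 of the 69 genes had too few tags to be tested over the 6 libraries.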
